A study of Mus musculus with 9 samples.

Results

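The Kruppel-like factors followed here were 10 genes of the family, Klf1, Klf2, Klf3, Klf4, Klf6, Klf7, Klf10, Klf12, Klf13 and Klf16, chosen by symbol and all present among the 35275 gene identifiers of the count table. Bulk RNA-seq had been done on megakaryocyte-erythroid progenitors (MEPs) of mouse bone marrow, sorted as Lin-ckit+CD34- cells with low FcgammaRII/III, and 25000 cells went into each library. HS3A8 is a single-chain antibody (scFv) against heparan sulfate (HS), the sulfated sugar chain of cell surface proteoglycans, and it split the MEPs into HS3A8-high and HS3A8-low cells by strength of binding. The third group was the control, sorted with MPB49, an scFv without HS binding. Each of the 3 groups had 3 libraries. No group carried a genetic change or a drug treatment, and the study's methods name wild-type C57Bl/6 mice matched for age and sex, without tying them to single libraries. HS3A8-high and HS3A8-low were the upper and lower parts of binding and together made up the gate, so each remained a mixture of cells. The labels call the replicates separate samples, and the fractions came from 3 individual mice, but whether a number marks the same mouse in both fractions is not stated, so the p-values measure the spread between these samples.

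Kruppel-like factors are zinc finger transcription factors that bind CACCC and other GC-rich elements, and their family is split by the regions outside the fingers, which recruit activators or repressors. Klf1, the erythroid Kruppel-like factor, activates globin, heme synthesis and red cell membrane genes, and the megakaryocyte and erythroid branches are known to part at the MEP with Klf1 on the erythroid side. Klf3 is a repressor that recruits CtBP and whose gene is a known target of Klf1. Klf2, Klf4 and Klf6 are inducible members: Klf2 keeps lymphocytes and endothelial cells quiescent, Klf4 promotes monocyte differentiation, and Klf6 is switched on as an early response gene in many cells.

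The bases directly upstream of 4 of the members on which the results turn are given below, from RefSeq on GRCm38.p6 and from 5' to 3' along each gene's own strand. Klf1 and Klf3 stand for the erythroid members and Klf6 and Klf2 for the inducible ones. Each window started 250 bases before the RefSeq start and is printed only as far as the base before the outermost GENCODE start. Capitals mark matches on either strand to the GATA factor motif (GATA preceded by A or T and followed by A or G), to CACCC for Kruppel-like factors, to the MEF2 motif (CTA and TAG with any 4 bases between them) and to TGANTCA for AP-1, and no printed match overlaps another.
Klf1 (chr8:84901732-84901927, plus strand): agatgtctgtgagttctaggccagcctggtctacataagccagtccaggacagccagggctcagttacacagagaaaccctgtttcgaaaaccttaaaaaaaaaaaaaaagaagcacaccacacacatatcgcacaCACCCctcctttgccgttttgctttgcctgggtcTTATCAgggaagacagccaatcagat
Klf3 (chr5:64803271-64803387, plus strand): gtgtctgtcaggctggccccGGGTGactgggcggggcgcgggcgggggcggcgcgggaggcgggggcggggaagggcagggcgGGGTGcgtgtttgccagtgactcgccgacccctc
Klf6 (chr13:5861239-5861481, plus strand): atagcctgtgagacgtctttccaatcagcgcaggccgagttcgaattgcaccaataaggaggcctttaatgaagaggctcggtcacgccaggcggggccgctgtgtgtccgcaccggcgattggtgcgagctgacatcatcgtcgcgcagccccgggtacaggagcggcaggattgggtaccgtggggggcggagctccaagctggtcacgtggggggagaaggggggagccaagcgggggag
Klf2 (chr8:72318812-72319032, plus strand): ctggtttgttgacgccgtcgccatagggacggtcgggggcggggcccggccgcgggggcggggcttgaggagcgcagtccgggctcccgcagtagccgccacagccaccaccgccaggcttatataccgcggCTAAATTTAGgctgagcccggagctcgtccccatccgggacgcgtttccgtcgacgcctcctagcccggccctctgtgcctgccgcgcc
In the printed Klf1 window a GATA match in reverse orientation, TTATCA, lay 80 to 75 bases before the start, and a CACCC match lay 114 to 110 bases before it. The whole 250-base Klf3 window held 5 matches to CACCC, of which the shorter printed stretch shows those 230 to 226 and 167 to 163 bases before the start. The Klf2 window held the MEF2 match among those of the members, CTAAATTTAG, 118 to 109 bases before its start. No match to any of the letters was in the Klf6 or Klf4 window. Of 32851 mouse promoters of the same length, 26.5% held a GATA match, 52% a CACCC match, 3.2% a MEF2 match and 6.75% an AP-1 match. A promoter was at hand for 8 of the 10 members, Klf10 and Klf16 being the others, and these matches describe letters, not bound sites.

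Between 11781637 and 15850037 reads per library were assigned to genes, and levels are given as CPM, a gene's count relative to the library total after TMM scaling over the 9 libraries. A count of 0 allowed up to 3 counts, or 0.189 to 0.255 CPM before TMM scaling, which covers counting error only. Erythroid markers made up the highest marker sum in every library (9968 to 13808 CPM). Most of that sum came from Car1 and Car2, with means of 4954 and 5306 CPM over the 9 libraries. Gata1, Epor and Tfrc, also among them, had means of 451, 259 and 483 CPM. Megakaryocyte markers summed to 108 to 664 CPM, so markers of both MEP fates were detected. Control replicate 1 stood apart from its group, since the chi-square of its counts per degree of freedom was 196 and 149.8 against control replicates 2 and 3, which gave 9.61 with each other. Replicate 3 of both fractions stood apart in granulocyte-monocyte markers (2041 and 5204 CPM, against 12.4 to 298 CPM in the other 7 libraries). In bulk RNA, fewer cells of a type and less RNA per cell cannot be told apart.

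Compared per length, as CPM per kilobase of exon, Klf1 was the most abundant member in all 9 libraries, with a median of 561 and a range of 337 to 679. Klf10 and Klf16 followed with the same median, 17.9, and Klf10 was above Klf16 in 6 of 9 libraries, as Klf16 was above Klf6. Klf6 (7.71), Klf3 (7.55) and Klf2 (4.63) came next, and Klf6 was above Klf3 in 5 of 9 libraries and Klf3 above Klf2 in 7. With the length of the longest transcript in place of all exons, the median of Klf3 was 16.3 CPM per kilobase, which put it above Klf6. Klf13 had a median of 3.79, and was above Klf4 in 8 of 9 libraries. Klf4 (0.348) and Klf7 (0.282) were near the bottom, Klf4 being above Klf7 in 4 of 9 libraries, and Klf12 (0.0101) was lowest. Klf2 was above Klf13 in 5 of 9 libraries. Neighbours in this order therefore exchanged places between libraries, except Klf1 with Klf10 and Klf7 with Klf12.

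**Figure D1:**
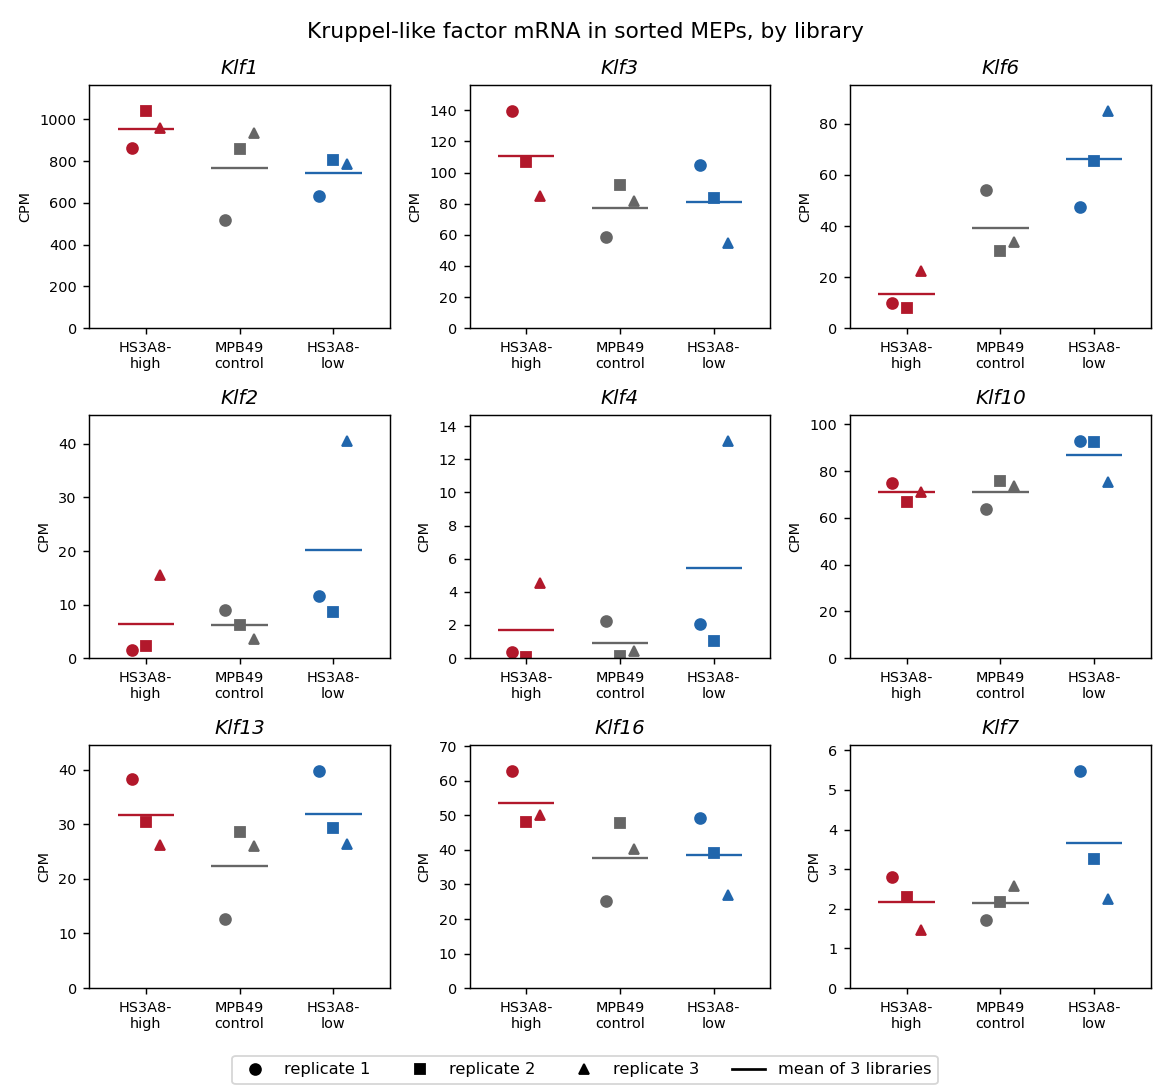
Level in CPM (linear axis from 0) of 9 members in each of the 9 libraries, by group. Symbols give the replicate number and lines the mean of 3 libraries. Klf6 was at 7.86 to 22.5 CPM in HS3A8-high and 47.6 to 85.0 CPM in HS3A8-low with the control between 30.3 and 54.1 CPM, whereas Klf2 and Klf4 were highest in replicate 3 of each fraction.

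The main question of the design was how HS3A8-high and HS3A8-low MEPs differ. Klf6 was the member that changed most clearly: it was 5.04-fold higher in HS3A8-low. Klf1 and Klf3 lay on the HS3A8-high side in every pair of libraries with the same number, and Klf2 and Klf4 on the HS3A8-low side. Klf16 also kept to the HS3A8-high side in every such pair, and Klf6, Klf7 and Klf10 to the HS3A8-low side. How many of all genes did so was not counted. With all 6 libraries Klf1, Klf3, Klf2 and Klf4 passed the test only when the replicate number was a term. The test was edgeR's quasi-likelihood test with Benjamini-Hochberg adjustment over 11791 genes, and a gene was called at an adjusted p under 0.05. Of the 10 members, 9 passed the filter on low counts and 1, Klf6, was called, against 3.82% of all genes tested (3.21% called as higher in HS3A8-low and 0.611% in HS3A8-high). The deviations from the group means went together over all genes where fractions shared a replicate number, so the test was also run with the number as a block. That blocked test called 5 members, Klf1 and Klf3 as higher in HS3A8-high and Klf2, Klf4 and Klf6 as higher in HS3A8-low, against 11.6% of all genes (3.32% as HS3A8-high and 8.27% as HS3A8-low genes). Blocked without number 1, 2 or 3 it called 2, 2 and 7 members, against 2.23%, 5.27% and 30% of all genes. Of the members called with the block, Klf4 passed the filter on low counts through HS3A8-low, where it was highest, so its call is no support.

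**Figure D2:**
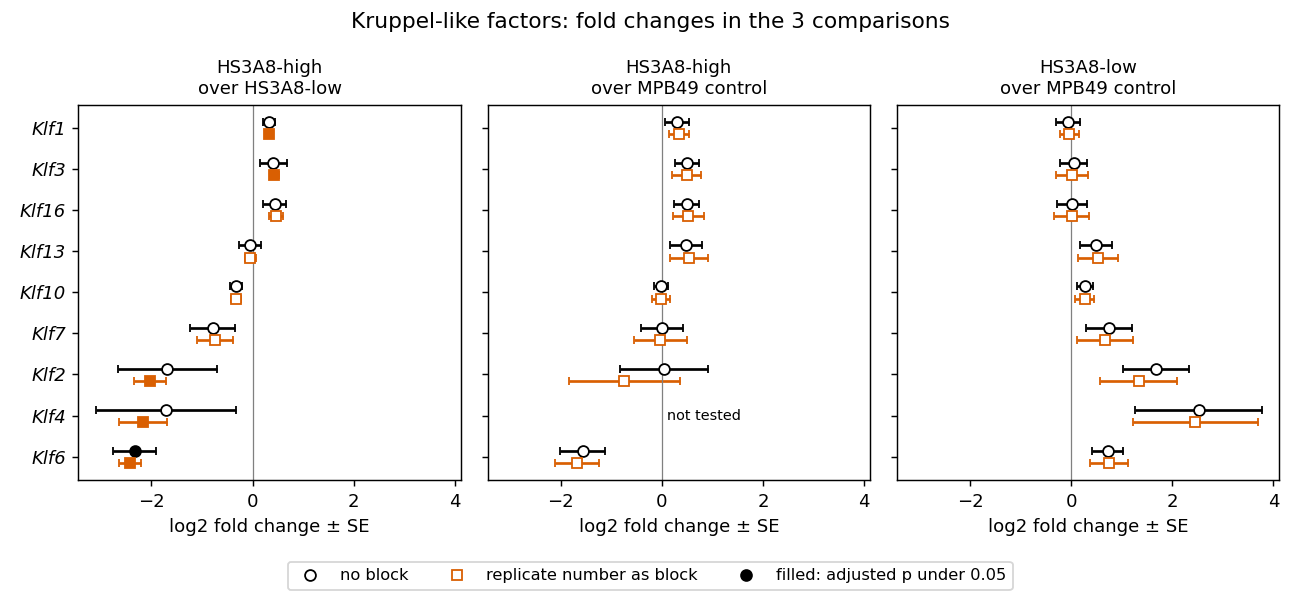
Log2 fold change with its SE for each tested member in the 3 comparisons, without (circles) and with (squares) the replicate number as a block, with filled symbols at an adjusted p under 0.05. Without the block only Klf6 was called, at a log2 fold change of -2.33 between the fractions, and with it Klf1, Klf3, Klf2 and Klf4 were too, while neither control comparison had a called member. Klf4 passed the filter on low counts through HS3A8-low.

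Klf1 (ENSMUSG00000054191, chr8:84901928-84905291, plus strand of GRCm38, as for all gene positions here) was at 864, 1039.5 and 959 CPM in HS3A8-high replicates 1 to 3. In HS3A8-low it was at 632, 806 and 786 CPM, and in the MPB49 control at 516, 858 and 933 CPM. All HS3A8-high libraries were above all HS3A8-low libraries, and the control spanned both, its replicate 1 being the lowest of the 9. The means were 954 ± 88.1 CPM in HS3A8-high and 742 ± 95.3 CPM in HS3A8-low (SD, n = 3). The log2 fold change was 0.33 (SE 0.113), with an edgeR adjusted p of 0.168 without and 0.0243 with the block. Leaving a replicate number out of the blocked test ended this call for number 1 (edgeR adjusted p = 0.207) and number 2 (adjusted p = 0.130). Within the numbers the log2 ratio was 0.45, 0.37 and 0.29.

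Klf3 (ENSMUSG00000029178, chr5:64803388-64832901, plus strand) was at 139.6, 107 and 84.9 CPM in HS3A8-high and at 105, 83.5 and 54.7 CPM in HS3A8-low. It was at 58.5, 91.9 and 81.7 CPM in the control. The 2 fractions overlapped, but each HS3A8-high library was above the HS3A8-low library of its number, with log2 ratios of 0.41, 0.35 and 0.63. The fitted log2 fold change was 0.41 (SE 0.268, edgeR adjusted p = 0.458), and 0.43 with the block (SE 0.0874, edgeR adjusted p = 0.0335). This blocked call was lost without number 1 (adjusted p = 0.167) or number 2 (adjusted p = 0.0932) of both fractions. Another gene, Gm20033, overlapped 3.59% of the Klf3 exon length.

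Genes that Klf1 is known to activate were split between both directions. Of 26 listed Klf1 target genes, 25 were in the count table and 23 were tested, with 12 log2 fold changes above and 11 below 0 and a median of 0.05, beside -0.03 over all genes. Of the 23, 1 was called, Pklr, the red cell pyruvate kinase, against 3.82% of all genes. Its mean was 150.3 ± 5.89 CPM in the HS3A8-high libraries and 107 ± 8.04 CPM in the HS3A8-low libraries (SD, n = 3, edgeR log2 fold change 0.45, adjusted p = 0.0402). That call was lost when any of the 6 libraries was left out, and no Klf1 target gene was called then, in fits that called 0% to 3.61% of all genes. The blocked test called 4 targets, all higher in HS3A8-high: Pklr, the erythroid membrane protein Ermap (log2 fold change 0.41, edgeR adjusted p = 0.0173), and the membrane skeleton genes Add2 (0.40, adjusted p = 0.0229) and Ank1 (0.42, adjusted p = 0.0487). Over all genes the blocked test called 11.6%. Without number 1 or number 2 of both fractions the blocked test called 0 Klf1 targets, against 2.23% and 5.27% of all genes. Late targets were low in all groups, such as the adult globin Hbb-bs at 18.8 ± 23.2 CPM in HS3A8-high and 23.4 ± 25.0 CPM in HS3A8-low (SD, n = 3). The cell cycle inhibitor Cdkn1b had a log2 fold change of -1.07 (edgeR adjusted p = 0.0717, blocked 0.0604).

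Klf6 (ENSMUSG00000000078, chr13:5861482-5870394, plus strand) was at 9.85, 7.86 and 22.5 CPM in HS3A8-high, at 47.6, 65.6 and 85.0 CPM in HS3A8-low and at 54.1, 30.3 and 33.9 CPM in the control. The HS3A8-high libraries were the lowest 3 of the 9, and the control overlapped HS3A8-low. Its log2 fold change of HS3A8-high over HS3A8-low was -2.33 (SE 0.428, edgeR adjusted p = 0.0363), and -2.42 with the block (SE 0.223, edgeR adjusted p = 0.00485). The log2 ratios within the numbers were -2.26, -3.04 and -1.91. Klf6 remained called in the blocked test without any of the 3 numbers, and in the unblocked test without replicate 3 of both fractions (edgeR adjusted p = 0.00344), which called 6.29% of all genes. Its unblocked call was lost when HS3A8-high replicate 1 (edgeR adjusted p = 0.139) or 2 (0.123), or HS3A8-low replicate 1 (0.0832), 2 (0.149) or 3 (0.0674), was left out, and the log2 fold change then lay between -2.50 and -2.06. Leaving out HS3A8-low replicate 2 left 0 genes called of all those tested. Klf6, Klf1 and Klf10 were the tested members whose fractions did not overlap, and 29.5% of all genes tested did not (15.2% with HS3A8-high above and 14.3% with HS3A8-low above).

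Klf2 (ENSMUSG00000055148, chr8:72319033-72321656, plus strand) was at 1.53, 2.29 and 15.5 CPM in HS3A8-high and at 11.7, 8.56 and 40.6 CPM in HS3A8-low. In the control it was at 8.92, 6.28 and 3.61 CPM. Replicate 3 was the highest library of each fraction and the fractions overlapped, whereas within each number HS3A8-low was higher, by log2 ratios of -2.82, -1.84 and -1.38 (HS3A8-high over HS3A8-low). The fitted log2 fold change was -1.68 (SE 0.986, edgeR adjusted p = 0.406) without and -2.02 (SE 0.315, adjusted p = 0.0183) with the block. The unblocked value was -0.67 without HS3A8-low replicate 3 and -3.44 without HS3A8-high replicate 3, and neither fit called Klf2. Without replicate 3 of both fractions Klf2 was called in the unblocked test as well, at a log2 fold change of -2.43 (edgeR adjusted p = 0.0208). The blocked call held without number 1 (edgeR adjusted p = 0.0411) and number 2 (adjusted p = 0.0109).

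Klf4 (ENSMUSG00000003032, chr4:55527143-55532466, minus strand) had 6 or fewer counts in 4 of the 9 libraries. Its counts were 6, 1 and 69 in HS3A8-high (0.381, 0.0763 and 4.56 CPM), 35, 15 and 157 in HS3A8-low (2.06, 1.06 and 13.1 CPM) and 25, 2 and 6 in the control (2.25, 0.128 and 0.442 CPM). Replicate 3 of each fraction held most of its counts. The log2 fold change was -1.71 (SE 1.39, edgeR adjusted p = 0.560), and it was 0.07 without HS3A8-low replicate 3 and -4.49 without HS3A8-high replicate 3. Klf4 passed the filter on low counts only in the comparisons with HS3A8-low, the group in which it was highest. With the block it was -2.16 (SE 0.473, adjusted p = 0.0403), a call that was lost without number 1 (adjusted p = 0.170) or number 2 (0.0629). Within the numbers the log2 ratios, computed with a prior count of 2, were -2.08, -2.47 and -1.49.

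**Figure D3:**
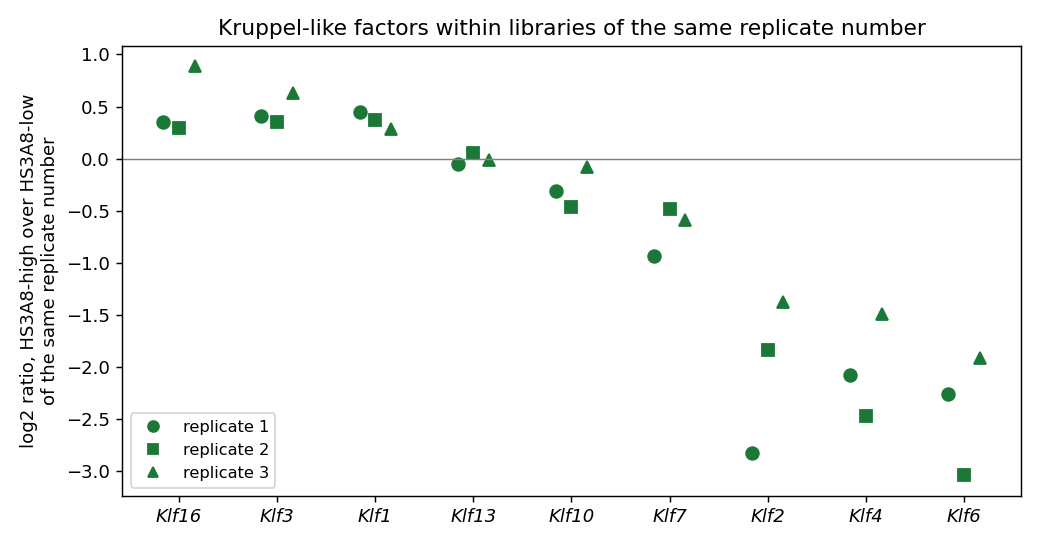
Log2 ratio of HS3A8-high over HS3A8-low between libraries of the same replicate number (linear axis, prior count of 2) for the 9 tested members, ordered by their values. Klf16, Klf3 and Klf1 were above 0 in all 3 numbers and Klf10, Klf7, Klf2, Klf4 and Klf6 below 0 in all 3, Klf6 from -3.04 to -1.91, while Klf13 lay around 0.

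The inducible members were read beside the genes and cell types known to go with them. Of 16 immediate-early genes, 13 were tested, all with a log2 fold change below 0, and 10 were called as higher in HS3A8-low: Fos, Jun, Junb, Jund, Egr1, Ier2, Ier3, Dusp1, Zfp36 and Btg2. That fit called 3.82% of all genes, 3.21% as higher in HS3A8-low. The immediate-early list had a median log2 fold change of -1.42, beside -0.03 over all genes. Egr1, a zinc finger early response factor, had a log2 fold change of -3.08 (edgeR adjusted p = 0.0253) and Jun, a subunit of AP-1, of -1.42 (adjusted p = 0.00712). The count of called immediate-early genes dropped to 4 when replicate 1 of either fraction was left out, to 6 when HS3A8-high replicate 2 was, and to 0 when HS3A8-low replicate 2 was. Calls over all genes fell in those fits as well, to 0.343% and 0.464% without replicate 1 of HS3A8-high and HS3A8-low, to 0.427% without HS3A8-high replicate 2 and to 0% without HS3A8-low replicate 2. The summed level of the list was 814 to 1133 CPM in HS3A8-high, 2234 to 2509 CPM in HS3A8-low and 1331 to 2800 CPM in the control, highest in control replicate 1. Klf6, Klf2 and Klf4 were also highest among the control libraries in replicate 1, and a link with the list was not tested.

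Markers of other cell types had higher sums in HS3A8-low than in HS3A8-high at each replicate number, as Klf2, Klf4 and Klf6 had higher levels. The 15 granulocyte-monocyte markers summed to 25.3, 12.4 and 2041 CPM in HS3A8-high replicates 1 to 3, to 165, 298 and 5204 CPM in HS3A8-low and to 114, 216 and 168 CPM in the control. Of these, 12 were tested, all with log2 fold changes below 0, and 0 were called by edgeR without and 8 with the block. Over all genes the test called 3.82% without the block, 3.21% as higher in HS3A8-low. With the block it called 11.6%, 8.27% as higher in HS3A8-low. The 11 T and NK cell markers summed to 4.35 to 38.1 CPM in HS3A8-high, 150.1 to 171 CPM in HS3A8-low and 45.3 to 115 CPM in the control. Of 10 tested, 2 were called, Trbc1 and Nkg7, or 4 with the block. Trbc1, with 5, 2 and 12 counts in HS3A8-high, and Cd3e, with 0, 0 and 15, passed the filter through HS3A8-low. In HS3A8-high against the control, 5 of the T and NK cell markers were tested. The 10 B-lymphoid markers, of which Pax5 and Ms4a1 were at 0 in every library, summed to 3.21 to 41.6 CPM in HS3A8-high, 44.1 to 114 CPM in HS3A8-low and 24.0 to 31.9 CPM in the control, and 0 of 3 tested were called, or 2 with the block. The 10 basophil and mast cell markers, with Mcpt4 and Tpsb2 at 0 throughout, summed to 1.65 to 80.9 CPM in HS3A8-high and 23.2 to 166 CPM in HS3A8-low, and 0 of 4 tested were called, or 1 with the block.

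Further marker lists were summed in the same way, and their calls stand beside 3.82% of all genes without and 11.6% with the block. The 12 megakaryocyte markers summed to 108 to 169 CPM in HS3A8-high and 349.5 to 664 CPM in HS3A8-low, and all 10 tested were below 0, with 5 called (Itga2b, Pf4, Treml1, F2r and Plek), or 8 with the block. The 11 stem and multipotent progenitor markers summed to 17.9 to 32.7 CPM in HS3A8-high and 183 to 216 CPM in HS3A8-low, with 3 of 9 tested called (Hlf, Meis1 and Mycn), or 6 with the block. The 8 endothelial and stromal markers, with Cdh5 at 0 in every library, summed to 6.87 to 11.3 CPM in HS3A8-high and 33.7 to 42.3 CPM in HS3A8-low, and of 3 tested Pecam1 and Emcn were called. Emcn had 0 counts in every HS3A8-high library, so it passed the filter through HS3A8-low, and it was not called with the block (edgeR adjusted p = 0.0531). The blocked test called Pecam1 and Col1a2 (edgeR adjusted p = 0.0333). The 12 erythroid markers summed to 12930 to 13808 CPM in HS3A8-high and 9968 to 11175 CPM in HS3A8-low, and Car1 was called as higher in HS3A8-high, joined by Car2 with the block. Across the marker lists, some genes with few counts in HS3A8-high passed the filter through HS3A8-low, such as Gp1bb (11, 0 and 0 counts in HS3A8-high). Of the genes called without the block, Treml1 (11, 14 and 8 counts in HS3A8-high), Hlf (25, 18 and 10) and Mycn (24, 8 and 21) were also such genes. Their direction was bound to that filter, so calls of such genes are no support. The part of any of these cell types in the levels of Klf2, Klf4 and Klf6 was not tested.

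**Figure D4:**
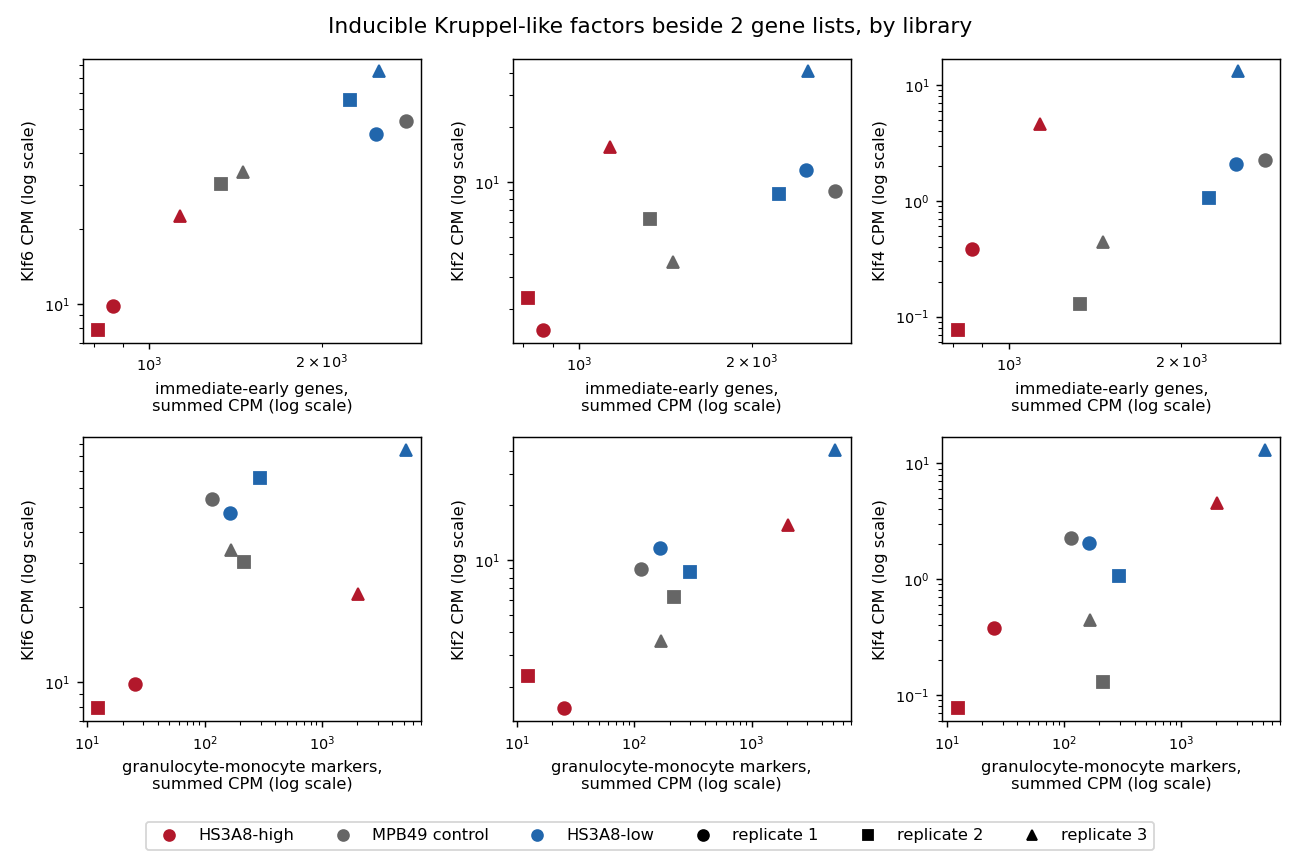
Levels of Klf6, Klf2 and Klf4 (CPM, log axes) in each library against the summed CPM (log axes) of immediate-early genes in the upper row and granulocyte-monocyte markers in the lower row, with colour for the group and symbols for the replicate number. The immediate-early sum ran from 814 to 2800 CPM and Klf6 was lowest in the 3 HS3A8-high libraries, while Klf2 and Klf4 were highest in HS3A8-low replicate 3, the library with the highest granulocyte-monocyte sum (5204 CPM).

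Upstream and downstream genes of Klf2 were described in the same way. Of 9 listed Klf2 regulators, which are the MEK5-ERK5 kinases, MEF2 factors and class II histone deacetylases, 9 were tested. Their directions were split, with 6 log2 fold changes below 0 and 3 above it, those of Mef2d (0.28), Hdac4 (0.15) and Hdac7 (0.0007). Only Mef2c was called, against 3.82% of all genes. Mef2c was at 17.5, 10.99 and 14.7 CPM in HS3A8-high and 71.8, 45.9 and 28.5 CPM in HS3A8-low, with no overlap (log2 fold change -1.79, SE 0.353, edgeR adjusted p = 0.0434). The block added the kinase Map3k3 (log2 fold change -0.82, edgeR adjusted p = 0.0269) and the deacetylase Hdac5 (-0.92, adjusted p = 0.0412), in a fit that called 11.6% of all genes. Of 5 Klf2 target genes, 3 were tested, and S1pr1, the receptor by which lymphocytes leave tissues, was called. S1pr1 was at 2.80, 1.60 and 2.45 CPM in HS3A8-high and 21.9, 16.6 and 12.02 CPM in HS3A8-low (log2 fold change -2.91, SE 0.339, edgeR adjusted p = 0.0134). The count of called Klf2 regulators was 0 when replicate 1 or 2 of either fraction was left out, and that of Klf2 targets was 0 when HS3A8-high replicate 1, HS3A8-high replicate 2 or HS3A8-low replicate 2 was, in fits that called 0% to 0.464% of all genes.

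Klf10, Klf13 and Klf16 are repressors that recruit Sin3, Klf10 being known as an early target of TGF-beta. Klf10 (ENSMUSG00000037465, chr15:38291463-38300706, minus strand) was at 75.0, 66.7 and 70.9 CPM in HS3A8-high, 92.9, 92.3 and 75.2 CPM in HS3A8-low and 63.9, 75.9 and 73.6 CPM in the control. Its fractions did not overlap, HS3A8-low being higher, yet the gap at replicate 3 was small, and the log2 fold change of -0.33 (SE 0.115) missed the threshold (edgeR adjusted p = 0.172, blocked 0.0889). Klf16 (ENSMUSG00000035397, chr10:80567124-80577321, minus strand) was at 62.9, 48.0 and 50.1 CPM in HS3A8-high, 49.4, 39.1 and 27.0 CPM in HS3A8-low and 25.2, 47.9 and 40.3 CPM in the control. HS3A8-high was higher in each number but the fractions overlapped at replicate 1 of HS3A8-low (log2 fold change 0.44, SE 0.229, edgeR adjusted p = 0.349, blocked 0.0867). With trends of GC content and length removed from the blocked test Klf16 was called, at a log2 fold change of 0.56 (edgeR adjusted p = 0.0266), as were 15.9% of all genes.

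Klf13 (ENSMUSG00000052040, chr7:63886351-63938915, minus strand) was nearly level between the fractions. It was at 38.3, 30.5 and 26.1 CPM in HS3A8-high and 39.8, 29.3 and 26.4 CPM in HS3A8-low, and at 12.7, 28.5 and 26.1 CPM in the control. The values of a number were close in both fractions, and control replicate 1 was the lowest of all 9 libraries. The log2 fold change was -0.05 (SE 0.213, edgeR adjusted p = 0.930).

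Klf7 and Klf12 had the lowest median levels per kilobase, although Klf7 was above Klf4 in some libraries. Klf7 (ENSMUSG00000025959, chr1:64029447-64122282, minus strand), a broadly expressed activator, was at 1.45 to 2.80 CPM in HS3A8-high, 2.25 to 5.48 CPM in HS3A8-low and 1.71 to 2.58 CPM in the control. HS3A8-low was higher in each number, with overlap between the fractions (log2 fold change -0.79, SE 0.447, edgeR adjusted p = 0.390, blocked 0.217). Other genes, Gm13748 and Gm26649, overlapped 39.4% of its exon length and the strand setting of the counting is not given, so the Klf7 counts are uncertain. Klf12 (ENSMUSG00000072294, chr14:99870632-100284679, minus strand), a CtBP-recruiting repressor, had 0 counts in all 3 HS3A8-high libraries, 3, 1 and 9 counts in HS3A8-low and 2, 4 and 0 in the control. It did not pass the filter on low counts and was not tested. Of its 13 counts in HS3A8-low, 9 came from replicate 3, and no fold is given.

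Each fraction was also set against the MPB49 control and these comparisons share libraries with each other and with the first. Between HS3A8-high and the control 8 members were tested and 0 were called by edgeR, as were 2 of 11486 genes (0.0174%), while 562 genes had an unadjusted p under 0.05. DESeq2 called 143 genes (1.06%), among them Klf6. Klf6 was 2.96-fold higher in the control, with no overlap (log2 fold change -1.56, SE 0.444, unadjusted p = 0.00948, edgeR adjusted p = 0.642, DESeq2 adjusted p = 0.0456). Klf16 did not overlap either, its highest control library (47.9 CPM) lying just under its lowest HS3A8-high library (48.0 CPM), with a log2 fold change of 0.49 (SE 0.248, edgeR adjusted p = 0.733). Of all genes tested, 14.4% did not overlap in this comparison (7.58% with HS3A8-high above and 6.85% with the control above). Klf4 did not pass the filter here. Klf1 was 0.30 higher on the log2 scale in HS3A8-high (SE 0.234, edgeR adjusted p = 0.733). Its log2 ratio was 0.74 at number 1, where the control was low, and 0.28 and 0.039 at the others. Numbers did not pair the libraries in this comparison, so these ratios are not those of pairs.

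Between HS3A8-low and the control 9 members were tested and 0 were called, as were 0 of 11878 genes (0%), with 673 genes at an unadjusted p under 0.05 and 93 genes (0.672%) called by DESeq2. DESeq2 called no member, and no tested member was free of overlap, as 12.7% of all genes were. The log2 fold change of Klf6 was 0.72 (SE 0.313, edgeR adjusted p = 0.840), of Klf2 1.67 (SE 0.655, unadjusted p = 0.0370, adjusted p = 0.825) and of Klf4 2.52 (SE 1.25, adjusted p = 0.840). The values of Klf2 and Klf4 rested on HS3A8-low replicate 3, without which they were 0.67 and 0.74. The log2 fold change of Klf1 was -0.06 (SE 0.235), of Klf3 0.05 (SE 0.267) and of Klf16 0.01 (SE 0.294). All of these missed the threshold, which does not show that the groups were alike.

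The rest of the family and its partners were taken from lists. Of 7 other Kruppel-like factors, Klf14, Klf15 and Klf17 had 0 counts in every library, and 4 were tested with 0 called in any comparison by edgeR. Klf11, a relative of Klf10, was at 39.0 ± 5.23 CPM in HS3A8-high and 43.7 ± 5.33 CPM in HS3A8-low, and Klf9 was at 32.7 ± 0.743 and 27.8 ± 1.28 CPM, respectively (SD, n = 3). The next by level was Klf5, at 4.84 ± 0.740 and 5.74 ± 2.07 CPM (SD, n = 3). Of 9 Sp factors, the closest relatives of the family, Sp5 to Sp9 were at 0 throughout and the 4 tested were not called, the highest being Sp3 (137 ± 3.10 CPM in HS3A8-high and 133 ± 13.6 CPM in HS3A8-low), Sp2 and Sp1. Of 13 cofactors and regulators of Kruppel-like proteins, 12 were tested and 0 called. The largest by level was Ctbp1, the corepressor used by Klf3, at 849.7 ± 23.6 CPM in HS3A8-high and 702 ± 57.4 CPM in HS3A8-low (SD, n = 3, log2 fold change 0.24, edgeR adjusted p = 0.142, blocked 0.0512), followed by the deacetylases Hdac1 and Hdac2.

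Members also varied with each other over the libraries. Across the 9 libraries Pearson's r of log2 CPM was 0.95 between Klf3 and Klf16 and 0.88 between Klf2 and Klf4, and lowest, at -0.76, between Klf3 and Klf6. Of the 8366 genes averaging 10 CPM or more, those most like Klf1 included Hdac1 (r = 0.995), Pfkm (0.985), Nt5dc2 (0.983) and Cited4 (0.978). Most like Klf3 were Wdr11 (0.986), Stk11 (0.985), Acsf3 (0.978), Emd (0.978) and Ntn4 (0.978). Klf2 went with Anxa2 (0.974), 1600014C10Rik (0.971), Fcer1g (0.968), Napsa (0.963) and Lgals3 (0.962). For Klf6, searched for after its values were seen, the genes were Lat2 (0.989), Cd300a (0.987), Zfp36 (0.986), Traf3ip3 (0.986) and H2-Aa (0.983). These are descriptions over 9 libraries that share 3 groups and, between the fractions, replicate numbers, and libraries such as control replicate 1 and replicate 3 of the fractions weigh on them.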

How the data were processed

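RNA of sorted mouse MEPs was sequenced by the authors as 9 low-input libraries. Reads were mapped to mm10, and the deposited values are whole-number counts of reads by gene that the authors had not normalized. The submitters' processing notes name STAR 2.5 and HTSeq 0.6.1. The strand setting and the annotation release are not given in the sources used here. Totals were 11781637 to 15850037 counts per library, which limits low members such as Klf4, Klf7 and Klf12.

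Gene identifiers were joined to GENCODE M21 on GRCm38 (34490 of 35275 matched), and promoters came from RefSeq. CPM were scaled by TMM, and log2 CPM used a prior count of 2. Groups were compared in R 4.3.3 with edgeR 4.0.16 (TMM, filterByExpr, quasi-likelihood test, Benjamini-Hochberg adjustment over all genes tested, adjusted p under 0.05), only the 2 groups compared being in a fit. Members and lists were chosen with earlier results of these data known. Named genes were all members and, of each list, the called genes or the 3 with the highest mean CPM, to which other genes were added after their values were seen (Ermap, Add2, Ank1, Hbb-bs, Cdkn1b, Map3k3, Hdac5 and Col1a2). Some genes that these rules name are not reported here.

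Replicate numbers come from the sample titles. Deviations from the group mean over 11791 genes had a correlation of 0.346 to 0.518 where a fraction was set against the other with its own number, and of -0.483 to 0.114 for unlike numbers, so a fit with the number as a block is given beside the main one. Other alternatives were DESeq2 1.42.0 and its size factors, other count filters, all 9 libraries in 1 fit, each library left out, replicate 3 of both groups left out, and trends of GC content and length (splines of 5 degrees of freedom) removed. Blocked fits without a replicate number were added after seeing the data.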

Additional observations from a re-analysis of the deposited data

How the results depend on the processing

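The count of members called between HS3A8-high and HS3A8-low was 1 in the main test, with DESeq2, DESeq2 size factors, both other count filters and all 9 libraries in 1 fit. It was 5 with the replicate block, 6 with GC and length trends also removed (centred or not, Klf16 being the added call), 2 without replicate 3 of both fractions, and 0 to 1 with single libraries left out. Blocked without number 1, 2 or 3 it was 2, 2 and 7. The count of 5 with the block included Klf4, which passed the filter on low counts through HS3A8-low. Uncentred trends moved the median log2 fold change of all genes to 0.24 from -0.03, and calls over all genes were then 41.1% of those tested, with 22.6% of calls higher in HS3A8-low, against 15.9% and 64.3% with centred trends, 11.6% and 71.3% with the block alone, 8.87% and 75.2% with DESeq2, and 3.82% and 84.0% in the main test. Klf13 was 0.23 with uncentred trends, close to that shift, and -0.21 to 0.17 with single libraries left out, and Klf4 was -4.49 to 0.073.

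Between HS3A8-high and the control the count was 0 and became 1 with DESeq2 (Klf6). The sign turned there for Klf10 (0.0026 without a count filter, 0.089 with uncentred trends, -0.078 to 0.029 with libraries left out), for Klf2 (-0.74 with the block, -0.69 and -0.57 with centred and uncentred trends, -2.01 without replicate 3 of both groups, -1.73 to 0.52 with libraries left out) and for Klf7 (0.0043 with DESeq2 size factors, 0.014 with DESeq2, 0.020 without a filter, 0.36 without replicate 3, -0.21 to 0.22 with libraries left out). Between HS3A8-low and the control the count was 0 throughout. The sign turned for Klf16 (-0.0053 with DESeq2 size factors, -0.0040 with DESeq2, -0.11 and -0.23 with centred and uncentred trends, -0.20 to 0.22 with libraries left out), Klf3 (-0.020 and -0.14 with the trends, -0.18 to 0.27 with libraries left out) and Klf1 (0.025 without replicate 3, -0.27 to 0.089 with libraries left out). None of these values was called, and the cause was not tested. In the control comparisons numbers did not pair the libraries (r from -0.248 to -0.065 and from -0.362 to 0.019), and the replicate block called 0 members in both.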
